A study of Mus musculus with 24 samples.

Results

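Cell division needs a set of genes that act together in mitosis, and 52 of them, from the Cdk1 kinase with its cyclins to the proteins that cut the cell in 2, were followed here across thymocyte selection. The 52 genes were fixed by name, and 49 of them had a probeset that the annotation of the array ties to 1 gene, 90 probesets in all out of 22626. Ccnb1, Cdca8 and Espl1 had no such probeset and were not measured here. Of several probesets for a gene, the brightest on average stood for it, and all 49 passed the filter on low values, which kept 7827 of 12393 genes.

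The samples were thymocytes sorted from pools of female mice of 6 to 8 weeks, on the B10.H2k (B10) background or on that of the autoimmune, diabetes-prone non-obese diabetic strain with the same H2k haplotype (NOD), and every mouse carried the 3A9 T cell receptor (TCR) transgene, whose receptor recognizes a peptide of hen egg lysozyme (HEL). S- cells, beginning negative selection, came from mice that carried the insHEL transgene as well, in which the insulin promoter drives HEL in medullary epithelium of the thymus at a low level that depends on Aire. S+ cells, beginning positive selection, came from mice with the TCR alone. Both were sorted as CD4+CD8lowCD69+ cells that bore the 1G12 clonotype of the receptor. Pre-selection cells (PreS) were CD4+CD8+ cells without CD69 or 1G12, from TCR insHEL mice and from TCR mice. There were 3 arrays for S- and 3 for S+ in each strain, and 6 for PreS, 3 from each genotype. The separate pools are called biological replicates by the labels, and cells were stained in the presence of drugs that block transcription.

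In mitosis Cdk1 with its cyclins drives entry, condensins compact the chromosomes, kinetochores on the centromeres bind the spindle, and the checkpoint proteins hold back the anaphase-promoting complex until every chromosome is attached. Cdc20 then activates that complex, which destroys securin and the cyclins, and midzone proteins divide the cell. Transcripts of these genes build up in G2 and mitosis and are low in resting cells. In the thymus, division is most active in the blasts that pass from the double negative to the double positive stage. In RNA from a whole population, fewer dividing cells and less RNA per dividing cell cannot be told apart.

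Promoters of many such genes share a pair of elements, the cell cycle genes homology region (CHR), which the DREAM and B-Myb complexes bind, and the CCAAT box of the factor NF-Y. For 42 of the 49 genes a RefSeq promoter window was at hand (GRCm38.p6, 250 bases before to 50 after the start site), and the letters TTTGAA or TTCGAA, on either strand, were found in 32 of them (76.2%), against 17.3% of 9882 genes on the array. CCAAT, on either strand, was in 33 of the 42 (78.6%), against 42.3%, and the 2 letter runs stood in 1 window in 30 (71.4%), against 6.87%. The motifs were searched one by one, and their letters could overlap. A match of this kind is a description of the window and not a binding site. The following sites, in each gene the match nearest to the start site, are shown because they belong to genes whose values carry the results, with the CHR letters in capitals, 5′ to 3′ on the strand of the gene. Those of Bub3 and Kif23 belong to members that were not called lower in B10 S+ cells.
Cdk1, chr10:69352910-69352939 (- strand): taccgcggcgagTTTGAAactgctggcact
Plk1, chr7:122159453-122159482 (+ strand): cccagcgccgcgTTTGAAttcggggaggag
Cdc20, chr4:118437344-118437373 (- strand): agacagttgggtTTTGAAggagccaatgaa
Bub1, chr2:127831828-127831857 (- strand): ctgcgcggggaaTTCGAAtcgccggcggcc
Sgo1, chr17:53689271-53689300 (- strand): gtaacgcagaatTTCGAAtgtggcggcggt
Ncapg, chr5:45669883-45669912 (+ strand): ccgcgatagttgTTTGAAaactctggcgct
Depdc1a, chr3:159495405-159495434 (+ strand): cgctcggagataTTCAAAtcagcagcgcgg
Ect2, chr3:27153822-27153851 (- strand): cgactggattttTTTGAAtcggaggcggca
Bub3, chr7:131560315-131560344 (+ strand): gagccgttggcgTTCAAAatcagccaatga
Kif23, chr9:61946780-61946809 (- strand): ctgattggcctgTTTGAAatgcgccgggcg

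By role, 5 of 6 genes of the Cdk1 engine, 7 of 9 of checkpoint and anaphase, 6 of 8 of chromosome structure, 7 of 9 of the spindle and 5 of 5 of the midzone had it, and 2 of 5 of the mitotic kinases and passenger complex. Among genes outside the 52, the letters were in 9 of 16 further spindle and cytokinesis genes (56.2%), 7 of 14 further regulators of G2 and mitosis, 8 of 20 further kinetochore genes (40.0%), 2 of 6 cohesin genes (33.3%), 6 of 31 DNA replication genes (19.4%), 2 of 12 subunits of the anaphase-promoting complex (16.7%) and the 2 condensin II subunits with a window.

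**Figure D1:**
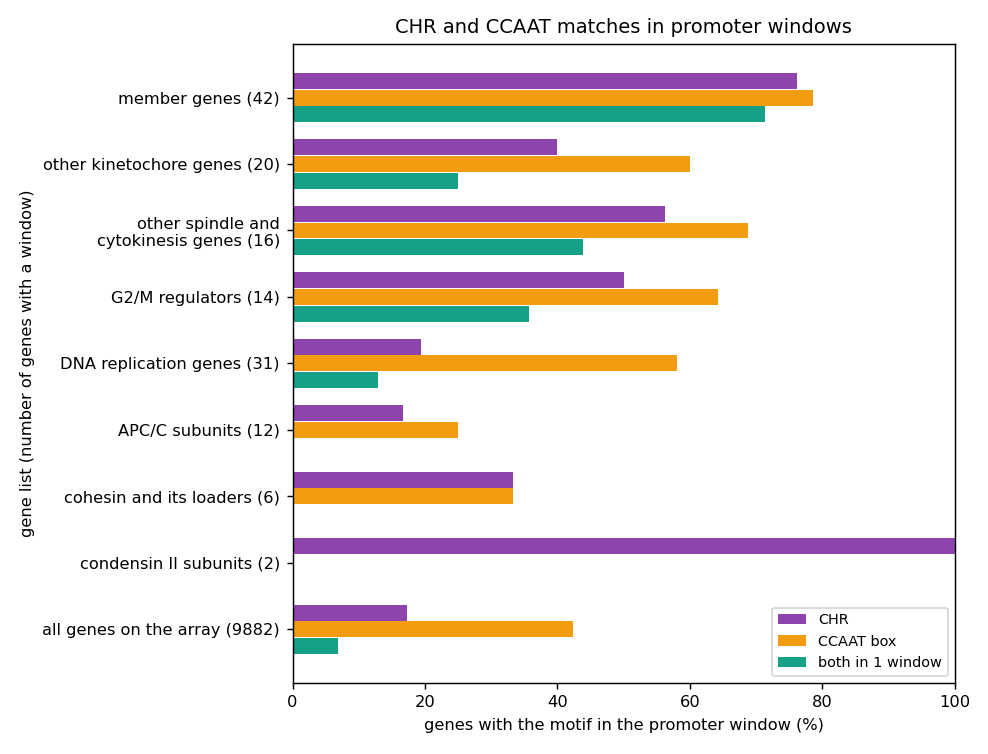
Bars give the percentage of genes with a CHR (TTTGAA or TTCGAA), with a CCAAT box or with the pair in 1 promoter window, for the member genes, 7 further gene lists and all genes of the array, with the number of genes beside each name. The member genes have the highest share of the lists drawn for the CCAAT box and for the pair (71.4% against 6.87% of all genes), and for the CHR the highest but that of condensin II, with 2 genes.

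The mitosis genes were high in PreS thymocytes of both strains, lower in S- cells of both, and lowest in S+ cells of B10. Averaged over the 49 genes, the log2 signal after standardization of each array was 7.05 ± 0.17 in NOD S- (SD, n = 3), 7.25 ± 0.22 in NOD S+ (n = 3) and 8.89 ± 0.20 in NOD PreS (n = 6), and 7.56 ± 0.22 in B10 S- (n = 3), 5.95 ± 0.38 in B10 S+ (n = 3) and 8.97 ± 0.11 in B10 PreS (n = 6). The 3 arrays of B10 S+ stood apart, since the highest of them (6.22) lay below the lowest array of every other group (6.93). In the B10 S+ arrays 11 to 19 of the 49 members had a signal under 32, near background, against 4 to 6 in NOD S-, 2 to 6 in NOD S+, 2 to 4 in B10 S- and 0 to 1 in PreS of either strain. Fold changes against values under 32 have no exact size.

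**Figure D2:**
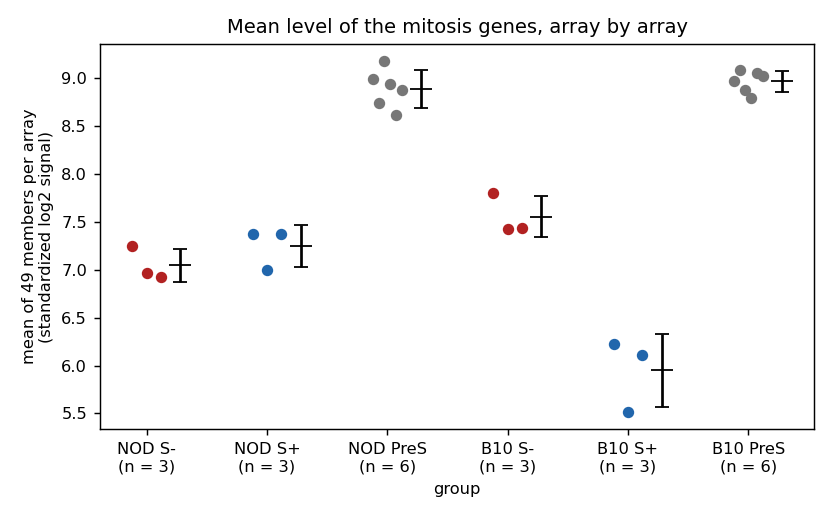
Each point is 1 array, at the mean standardized log2 signal of the 49 members, and the bars beside them give the mean ± SD of the group (S- red, S+ blue, PreS grey). The B10 S+ arrays lie at 5.52 to 6.22, below all others, and the S- and S+ arrays of NOD overlap.

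**Figure D3:**
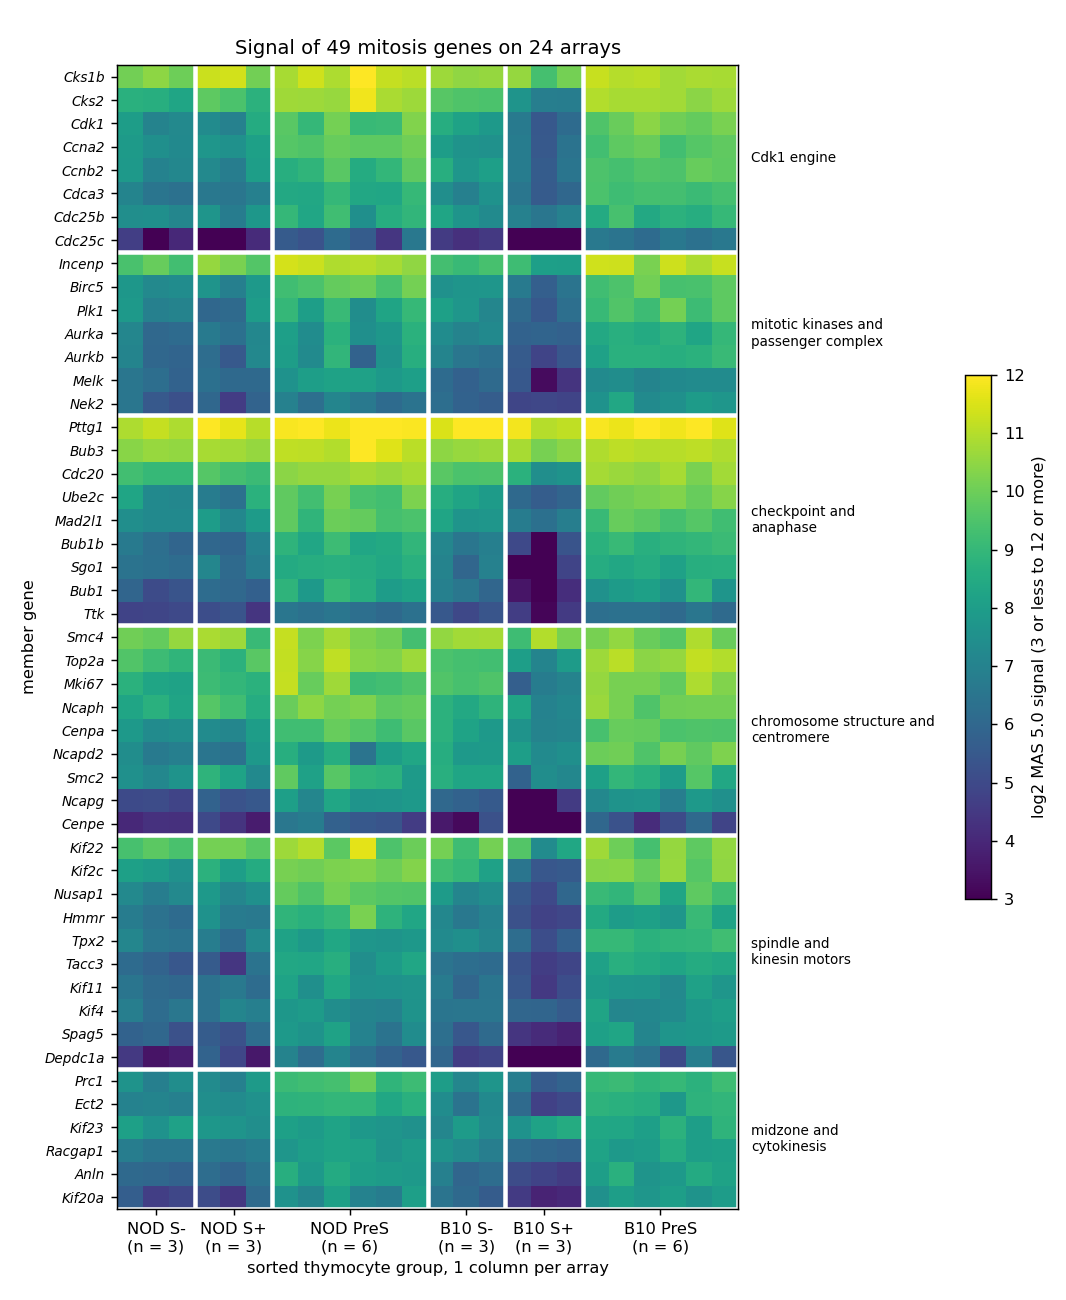
Columns are the 24 arrays in 6 groups and rows the 49 members in their 6 role groups, each row group ordered by mean signal. Colour gives the log2 of the deposited signal, and the lowest values gather in the 3 B10 S+ columns, where 11 to 19 members are under a signal of 32, while Pttg1, Bub3, Smc4 and Kif23 are at 191 or more there.

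The median Pearson correlation between pairs of members was 0.85 over the 24 arrays (1176 pairs), and 0.22 between their deviations from the group means. Smc4, Kif23 and Pttg1 had the lowest mean correlation with the other members, at -0.0041, 0.27 and 0.45. The lowest of single pairs was -0.20. The pairs share arrays, and the values are a description.

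In S+ thymocytes of B10, 45 of 49 members were lower than in PreS cells and none was higher (limma, adjusted p under 0.05), where 9.86% of all genes were lower. The median log2 difference was -3.27, against 0.05 over all genes. By role, 8 of 8 genes of the Cdk1 engine, 7 of 7 mitotic kinases and passenger proteins, 10 of 10 spindle and motor genes, 8 of 9 of chromosome structure, 7 of 9 of checkpoint and anaphase and 5 of 6 of the midzone fell. In S- cells 40 of 49 were lower than in PreS and none higher, against 7.35% of all genes, with a median of -1.46. On the standardized scale, which is used for all counts of groups that do not overlap, all S+ arrays lay below all PreS arrays for 44 of the 49, where 10.5% of all genes did so. All S- arrays did for 42, where 10.6% of all genes did so. S- and S+ cells were set against the same PreS arrays. With the day of hybridization as a fixed block, 42 members were called lower in S+ and 4 in S-, at medians of -3.24 and -1.27, where 5.51% and 0.933% of all genes were.

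In the direct comparison, 32 of 49 members were higher in S- than in S+ cells of B10 and none was lower, against 1.56% of all genes higher, with a median log2 difference of 1.51. For 41 of the 49 every S- array lay above every S+ array, where 8.39% of all genes did. In 38 of the 49 all S+ arrays lay below all S- arrays and these below all PreS arrays, an order held by 2.26% of all genes. Within the days of hybridization that held an S- and an S+ array of B10, the medians were 0.95 on 1 day, with 46 of 49 members higher in S-, and 2.28 on the other, with 47 of 49. The count fell to 16 without B10 S- replicate 1 and to 18 without S+ replicate 2, with no member lower in either. It was 13 with day as a fixed block, where 0.818% of all genes were higher. Some markers of other thymocyte stages also differed between S- and S+ cells of B10. Among 7 markers of double positive thymocytes, Cd4, which also marks single positive cells, was called lower in S-, with 180.8, 353.5 and 413.4 in S- and 1256.6, 679.5 and 1048.0 in S+. The other 6 summed to 879 to 1239 in S- and 659 to 871 in S+, so that all S- arrays lay above, with none of the 6 called. The 5 markers of double negative thymocytes summed to 684 to 860 in S- and 837 to 1835 in S+, with overlap, and Kit and Il2ra were called higher in S-. Without Dtx1, the brightest of the 5 in these cells, the sums were 393 to 528 in S- and 124 to 209 in S+. The 8 myeloid markers summed to 706 to 2372 in S- and 601 to 1504 in S+. The part of these in the difference of the mitosis genes was not tested.

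Cdk1, the kinase of mitotic entry, had signals of 392, 291 and 233 in B10 S- cells, 106, 44.9 and 70.5 in S+ cells and 738 to 1374 (median 1022) in PreS cells. It was -3.88 ± 0.28 log2 units, adjusted p = 8.4e-07 in S+ against PreS and 2.10 ± 0.32 log2 units, adjusted p = 0.0053 in S- against S+. The 3 groups did not overlap. Its small partner Cks2 had 805, 741 and 694 in S-, 204, 114 and 113 in S+ and 1401 to 1996 (median 1774) in PreS, without overlap. The other partner, Cks1b, had 1655, 1469 and 1524 in S-, 1532, 650.5 and 1099.5 in S+ and 1722 to 2419.8 (median 1957) in PreS. Its S- and S+ arrays overlapped, and it had the smallest called fall of all members in S+ cells, at -0.91 ± 0.25 log2 units, adjusted p = 0.022. A further probeset of Cks1b fell by more, by 2.03 (adjusted p = 2.7e-04). Cdc25b, a phosphatase that activates Cdk1, had 309.7, 200.0 and 159.6 in S-, 125, 91.6 and 124 in S+ and 347 to 663 (median 414) in PreS, and its S- and S+ arrays were apart although the difference was not called (0.91 ± 0.30 log2 units, adjusted p = 0.21). Its relative Cdc25c, at a low level throughout, had 23.7, 19.0 and 22.8 in S-, 3.3, 2.2 and 2.2 in S+ and 71.0 to 98.5 (median 92.8) in PreS. The S+ values of Cdc25c are near background, and its differences were the largest or next to largest in S+ (-5.25 ± 0.18 log2 units, adjusted p = 2.8e-09) and in S- (-2.19 ± 0.18 log2 units, adjusted p = 1.1e-05) against PreS. Cdc25c passed the filter on low values only through PreS cells.

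Among the kinases and the passenger complex, which corrects faulty attachments, Incenp had 628, 543 and 674 in B10 S- cells, 592, 269.6 and 264 in S+ and 1178 to 2606 (median 2484) in PreS. Birc5 (survivin) had 189, 208 and 212 in S-, 102, 52.6 and 88.5 in S+ and 598 to 1073 (median 701) in PreS. Plk1, the polo kinase of spindle and division, had 279, 214 and 139 in S-, 69.4, 44.2 and 78.0 in S+ and 531 to 1119 (median 666) in PreS. All 7 of this group were lower in S- and in S+ than in PreS, at -2.12 to -1.40 log2 units in S- and -3.54 to -2.58 in S+. Plk1 was 1.69 ± 0.34 log2 units, adjusted p = 0.024 and Birc5 1.36 ± 0.28 log2 units, adjusted p = 0.028 in S- against S+, whereas 1 S+ array of Incenp (592) stood within the S- range and its difference was not called (0.82 ± 0.35 log2 units, adjusted p = 0.38).

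The checkpoint genes held some of the largest differences. Bub1, a kinase of the kinetochore checkpoint, had 122, 93.8 and 63.1 in B10 S- cells, 11.3, 5.2 and 18.1 in S+ and 187 to 494 (median 227) in PreS. Sgo1 (shugoshin), which protects cohesion at centromeres, had 131, 63.4 and 124 in S-, 7.2, 5.1 and 28.9 in S+ and 288 to 409 (median 377) in PreS. Cdc20, the activator of the anaphase-promoting complex, had 833, 697 and 714 in S-, 434, 173 and 195 in S+ and 1176 to 1804 (median 1678) in PreS. None of these 3 genes had overlapping groups. In S- against S+ they differed by 3.12 ± 0.47 log2 units, adjusted p = 0.0047 for Bub1, 3.31 ± 0.51 log2 units, adjusted p = 0.0053 for Sgo1 and 1.62 ± 0.31 log2 units, adjusted p = 0.019 for Cdc20. The S+ signals of Bub1 and Sgo1 are under 32, so that these sizes are not exact. A further probeset of Bub1 had smaller differences, -1.91 in S+ against PreS (adjusted p = 2.9e-04) and 0.97 in S- against S+, which was not called.

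A few members were not called. Pttg1 (securin), which blocks the enzyme that cuts cohesin, had 2866, 4174 and 4041 in B10 S-, 3656, 2069 and 2278 in S+ and 2989.9 to 4233 (median 3712) in PreS. Bub3, the partner of Bub1, had 1409.7, 1574 and 1623 in S-, 1806, 1128 and 1388 in S+ and 1932 to 2207 (median 2076) in PreS. Smc4, a core subunit of condensin, had 1481, 1739 and 1754 in S-, 594, 2013 and 1180.4 in S+ and 801 to 1930.3 (median 1056) in PreS. These 3 and Kif23, a kinesin of the midzone, with 141, 248 and 164 in S-, 191, 295 and 370.5 in S+ and 262 to 467 (median 323) in PreS, were the members not called in S+ against PreS. Their log2 differences were -0.43 for Pttg1, -0.50 for Bub3, -0.04 for Smc4 and -0.34 for Kif23, with adjusted p from 0.080 to 0.96. Bub3 had all S+ and S- arrays below those of PreS, by small amounts. Among the 49, Kif23 alone had a negative sign in S- against S+ (-0.65 ± 0.31 log2 units, adjusted p = 0.45, not called), and it was called lower in S- against PreS (-0.98 ± 0.27 log2 units, adjusted p = 0.030). Of 2 further probesets of Pttg1, 1 was called lower in S+ (-1.23, adjusted p = 9.1e-04). Further probesets of Bub3 and Smc4 that passed the filter were not called, and those of Kif23 did not pass it.

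Chromosome structure genes had the widest range in S+ against PreS, from -5.29 to -0.04. Top2a, the topoisomerase that untangles sister chromatids, had 696, 645 and 627 in B10 S-, 266, 132 and 247 in S+ and 1385 to 2328 (median 1811) in PreS. Mki67, the coat protein of mitotic chromosomes and the usual marker of dividing cells, had 744, 671 and 734 in S-, 52.5, 110.5 and 129 in S+ and 922 to 1900.5 (median 1195) in PreS. In S- cells Mki67 was not called against PreS (-0.81 ± 0.29 log2 units, adjusted p = 0.097), and it was higher than in S+ by 3.01 ± 0.34 log2 units, adjusted p = 5.0e-04. Ncapg, a subunit of condensin I, had 66.4, 57.1 and 46.4 in S-, 1.4, 3.4 and 23.7 in S+ and 114 to 232 (median 189.7) in PreS, and its differences were the largest of all members in S+ against PreS (-5.29 ± 0.64 log2 units, adjusted p = 5.5e-05) and in S- against S+ (3.52 ± 0.74 log2 units, adjusted p = 0.029). Since 2 of its S+ values are under 4 and the third is 23.7, its size is not exact, and its further probeset was at -1.95 in S+ against PreS and at 0.55 in S- against S+, the last not called.

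Of the spindle genes, Kif2c, which takes apart microtubules at the centromere, had 598, 506 and 286 in B10 S-, 90.4, 43.2 and 46.6 in S+ and 788 to 1583 (median 1330.2) in PreS. Nusap1, which binds spindle microtubules, had 246, 137 and 169.9 in S-, 44.5, 31.6 and 64.8 in S+ and 316 to 869 (median 580.1) in PreS. Kif22, a kinesin that rides on chromosome arms, had 1103, 588 and 1122 in S-, 775, 163 and 331 in S+ and 651 to 1690.5 (median 1259.5) in PreS. The groups of Nusap1, and of Kif2c by its brightest probeset, were apart and those of Kif22 overlapped. By these probesets Kif22 had the smallest called fall but that of Cks1b (-1.71 ± 0.44 log2 units, adjusted p = 0.015), while its second probeset was at -3.93. Depdc1a had 62.0, 25.0 and 28.6 in S-, 7.1, 2.1 and 3.3 in S+ and 32.3 to 116 (median 75.7) in PreS, and its S- arrays overlapped those of PreS. Tacc3, which holds spindle fibres together, had 88.8, 76.2 and 70.6 in S-, 38.3, 24.8 and 29.2 in S+ and 286 to 408 (median 353) in PreS, the largest fall of a member in S- cells (-2.23 ± 0.20 log2 units, adjusted p = 1.8e-05). Its second probeset was at -0.76 there and was not called (adjusted p = 0.11). For the midzone, Prc1, which bundles its microtubules, had 260.0, 139 and 206 in S-, 112, 47.6 and 58.7 in S+ and 446 to 585 (median 527) in PreS. Ect2, which activates RhoA for the cleavage furrow, had 168, 86.7 and 154 in S-, 69.1, 26.7 and 31.7 in S+ and 222 to 482 (median 435) in PreS, and for Prc1 and Ect2 all S+ arrays lay below all S- arrays and these below PreS. Racgap1, which works with Ect2, had 195, 163 and 116 in S-, 74.6, 64.6 and 59.0 in S+ and 235 to 381 (median 269.8) in PreS, and its called differences were the smallest of S- from S+ (1.20 ± 0.25 log2 units, adjusted p = 0.026) and of S- from PreS (-0.94 ± 0.21 log2 units, adjusted p = 0.011). By its second probeset they were larger, at 2.01 and -1.83. Next in S- against S+ was the checkpoint protein Mad2l1 (1.23 ± 0.28 log2 units, adjusted p = 0.041), with 314, 204 and 214 in S-, 109.8, 80.3 and 116 in S+ and 539 to 959.7 (median 717) in PreS.

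The other members fell in B10 S+ cells as well. Ccna2 and Ccnb2, the cyclins that bind Cdk1, were at -3.39 and -3.30 against PreS, and the Aurora kinases Aurka and Aurkb and the kinase Melk at -2.82, -3.43 and -3.01 log2 units. The checkpoint proteins Bub1b and Ttk were at -4.67 and -2.32, and Ube2c, the ubiquitin-conjugating enzyme of the anaphase-promoting complex, at -4.22. Of the centromere, Cenpa, its histone, was at -2.37 and the motor Cenpe at -2.80, and of condensin Smc2 at -1.86 and Ncaph at -2.61. Kif11, which pushes the spindle poles apart, was at -2.79, Hmmr and Spag5, which bind the spindle, at -3.34 and -3.77, and Anln and Kif20a, of the furrow and the midzone, at -3.41 and -3.73. All of these 17 were called lower in S+, and 16 in S-, Smc2 being the exception at -0.25. Of the 17, Ttk, Cenpe, Spag5 and Kif20a were under 32 on all 3 B10 S+ arrays, and Bub1b, Melk, Hmmr and Anln on 2, so that these sizes are not exact. Cenpe passed the filter only through NOD PreS cells of TCR mice. In B10 it had 17.7 to 66.8 in PreS, 9.3 to 37.6 in S- and 5.1 to 7.3 in S+. Cdc25c, Ttk and Depdc1a also passed the filter only through PreS cells, the group from which their falls are measured. The members Ncapd2, Nek2, Tpx2, Cdca3 and Kif4, described further on, were lower in S+ too, at -2.35, -2.94, -3.32, -3.27 and -1.86. Nek2 was also under 32 on all 3 B10 S+ arrays, so that its size is not exact. In the same comparison a second probeset of Cdca3 was at -0.34 and was not called (adjusted p = 0.43), and that of Hmmr fell by 0.91 (adjusted p = 0.017). In S- against S+ 11 of the first 17 were called higher, and Ttk, Cenpa, Cenpe, Ncaph, Smc2 and Melk, at 1.02 to 1.61, were not.

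**Figure D4:**
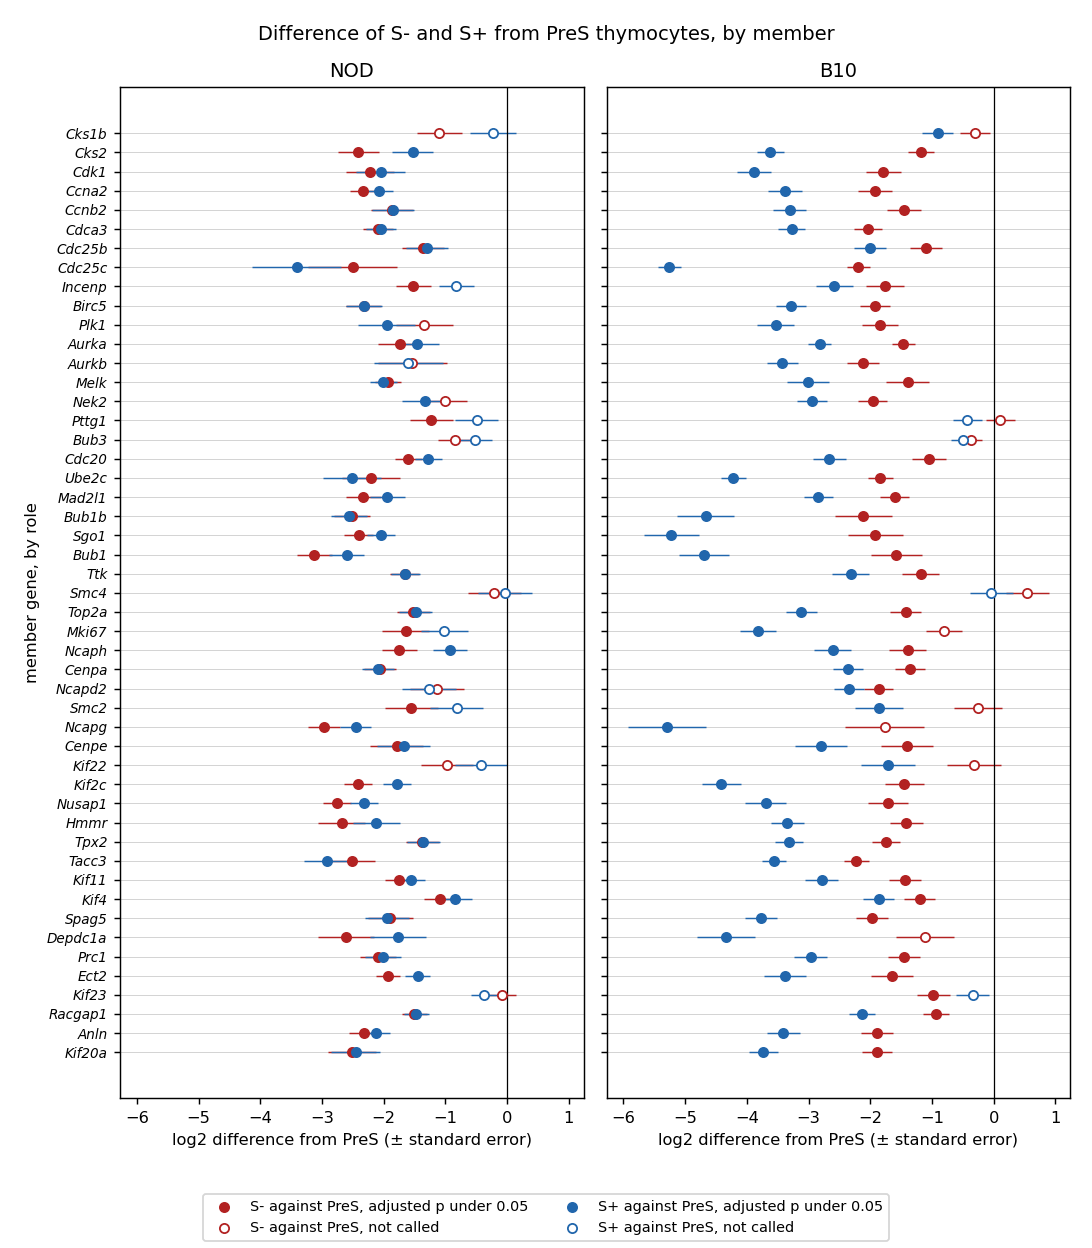
Points give the log2 difference of S- (red) and of S+ (blue) from PreS for each of the 49 members, in NOD on the left and B10 on the right, with bars of 1 standard error from limma and open points where the adjusted p is 0.05 or more. In B10 the blue points lie left of the red for 48 of 49 members, with medians of -1.46 in S- and -3.27 in S+, and in NOD the 2 colours lie close to each other, with medians of -1.86 in S- and -1.68 in S+.

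In NOD thymocytes 40 of 49 members were lower in S- than in PreS cells and 38 lower in S+, with none higher in either, where 5.88% of all genes were lower in S- and 8.41% in S+. The median log2 differences were -1.86 in S- and -1.68 in S+. All S- arrays lay below all PreS arrays for 42 of the 49 and all S+ arrays for 35, where 10.8% and 8.38% of all genes did so. Between S- and S+ cells of NOD no member was called by limma, with 3 at an unadjusted p under 0.05 (3.64% of all genes), and 0% of all genes was called. The median difference was -0.17, with 12 members higher and 37 lower in S- by sign. With array weights 7 members were called lower in S-, where 5.01% of all genes were. The arrays of the 2 groups overlapped for 44 of the 49, and S- lay below S+ in the other 5, where 4.82% of all genes did so. On the days that held an S- and an S+ array of NOD, the medians were -0.33 and -0.15. With the day of hybridization as a fixed block, no member was called against PreS in NOD in either group, with medians of -2.11 in S- and -1.96 in S+, and 29 and 30 members at an unadjusted p under 0.05, as were 4.42% and 7% of all genes. Without the 2 NOD S+ arrays of highest 3′ to 5′ ratio (replicates 1 and 2, left out together with B10 S+ replicate 1 after the data were seen), 17 were lower in S+. The lone S+ array then left was assumed to vary like the other groups.

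Cdk1 had 260.3, 129.8 and 152 in NOD S- cells, 160.3, 124 and 372 in S+ cells and 509.9 to 1271 (median 695) in PreS cells. The S+ array at 372 was high beside the other 2, and S- and S+ overlapped. Cks2 had 420.2, 396 and 317 in S-, 879, 702 and 446 in S+ and 1570.5 to 3599 (median 1652) in PreS, so that all S- arrays lay below all S+ arrays, at -0.88 ± 0.38 log2 units, adjusted p = 0.80, not called. Cks1b had 1098, 1404 and 1036 in S-, 2471, 2672 and 1091 in S+ and 1819 to 4203 (median 2275) in PreS, and neither selected group was called against PreS by this probeset. The further probeset of Cks1b had 313, 184 and 170 in S-, 179, 202 and 410 in S+ and 352 to 1154.5 in PreS. Cdc25b had 175, 180.2 and 142 in S-, 206, 110.4 and 217 in S+ and 178 to 611 (median 439.9) in PreS, with 1 PreS array within the range of the selected cells and both groups called lower. Cdc25c, near background, had 25.6, 2.3 and 16.3 in S-, 3.2, 3.9 and 17.2 in S+ and 21.6 to 97.1 (median 48.4) in PreS, the largest fall of a member in NOD S+ (-3.41 ± 0.72 log2 units, adjusted p = 0.0080).

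Among the kinases and passenger proteins, 4 of 7 in S- and 5 of 7 in S+ were called lower than PreS in NOD. Incenp had 690.1, 956 and 622 in NOD S-, 1522, 1165 and 766 in S+ and 1437 to 2716 (median 2010.0) in PreS, and only S- was called against PreS (-1.52 ± 0.29 log2 units, adjusted p = 0.0042), which a second probeset was not (-1.03, adjusted p = 0.37). Birc5 had 217, 152 and 167 in S-, 204, 117 and 232 in S+ and 606 to 1112 (median 823) in PreS, with both selected groups below PreS. Plk1 had 226, 119.7 and 132 in S-, 64.8, 68.3 and 249 in S+ and 172 to 547 (median 410.0) in PreS. Its NOD groups overlapped, and S+ was called against PreS (-1.95 ± 0.46 log2 units, adjusted p = 0.014) while S- was not (-1.34 ± 0.46 log2 units, adjusted p = 0.080).

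Bub1 had 61.4, 32.9 and 40.8 in NOD S-, 72.1, 65.8 and 54.6 in S+ and 236 to 523 (median 342) in PreS, and its fall in S- was the largest of the members (-3.12 ± 0.29 log2 units, adjusted p = 3.4e-05), against -1.26 by its second probeset (adjusted p = 0.010). Sgo1 had 86.0, 79.4 and 73.2 in S-, 138, 69.2 and 112 in S+ and 338 to 417 (median 382) in PreS. Cdc20 had 623, 519.6 and 525 in S-, 791, 639 and 557 in S+ and 1393 to 1818 (median 1557) in PreS. For these 3 genes both selected groups lay below PreS, and S- and S+ overlapped. Pttg1, which was not called in B10, was called lower in NOD S- than in PreS (-1.23 ± 0.35 log2 units, adjusted p = 0.038), with 1893, 2358 and 1909 in S-, 4252, 3267 and 2077 in S+ and 3372 to 8181 (median 4181) in PreS. Bub3 had 1365, 1547 and 1474 in S-, 1813, 1728 and 1516 in S+ and 2006 to 4184 (median 2233) in PreS and was not called, although no selected array reached the PreS range.

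Smc4 had 1065, 937 and 1512 in NOD S-, 1845, 1628 and 553 in S+ and 639.5 to 2378 (median 1202) in PreS, with wide overlap. Top2a had 762, 578 and 477 in S-, 563, 437 and 828 in S+ and 1254 to 2296 (median 1498) in PreS, below PreS in both. Mki67 had 428, 309.8 and 294 in S-, 582, 497 and 432 in S+ and 576 to 2361 (median 850.5) in PreS. Its PreS arrays had 2361, 961 and 1686 in TCR mice and 576, 615 and 740 in TCR insHEL mice. The highest S+ array, from TCR mice, reached the lowest PreS array, from TCR insHEL mice, in signal but not on the standardized scale. Mki67 was called against PreS in S- (-1.64 ± 0.38 log2 units, adjusted p = 0.015) but not in S+ (-1.02 ± 0.38 log2 units, adjusted p = 0.090). Ncapg had 32.7, 34.2 and 28.9 in S-, 57.1, 39.2 and 44.7 in S+ and 141 to 318 (median 217) in PreS, and fell by 2.97 log2 units in S- against PreS, the largest fall but that of Bub1. Ncapd2, another condensin subunit, had 172, 101 and 117 in S-, 89.9, 81.5 and 224 in S+ and 88.8 to 396 (median 289) in PreS, with overlap throughout. Ncaph, of the same complex, had 316, 421 and 304 in S-, 798, 607 and 384 in S+ and 874 to 1414 (median 1046) in PreS, and was one of the smallest called falls in S+ (-0.92 ± 0.28 log2 units, adjusted p = 0.043), against -1.83 by its second probeset.

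In the spindle, Kif2c had 275, 244 and 188 in NOD S-, 439, 263 and 367 in S+ and 1033 to 1300.1 (median 1172) in PreS. Nusap1 had 152, 112 and 149 in S-, 232, 141 and 184 in S+ and 729 to 1112 (median 811) in PreS. Kif22 had 671, 856 and 680.0 in S-, 1106, 1104 and 823 in S+ and 721 to 3142 (median 1338) in PreS. Nusap1, and Kif2c by its brightest probeset, were well below PreS in both selected groups. The further probesets of Kif2c, at a low level, overlapped PreS in both groups. Kif22, by the probeset given, overlapped and was not called in either. A second probeset of Kif22 had 59.1, 46.3 and 37.2 in S-, 28.1, 17.2 and 79.2 in S+ and 154 to 406 in PreS, without overlap of either with PreS. Depdc1a had 22.8, 11.1 and 13.3 in S-, 58.4, 30.1 and 11.9 in S+ and 44.4 to 133 (median 76.8) in PreS. Tacc3 had 70.7, 57.8 and 43.5 in S-, 47.6, 21.6 and 85.7 in S+ and 174 to 395 (median 323) in PreS, with the largest fall in S+ but that of Cdc25c (-2.92 ± 0.38 log2 units, adjusted p = 5.2e-04), although its second probeset, at -0.56, was not called (adjusted p = 0.30). Kif4, a motor of chromosomes and midzone, had 116, 72.3 and 96.0 in S-, 83.3, 138 and 117 in S+ and 126 to 246 (median 185) in PreS, and its fall was the smallest called in either group, at -0.84 ± 0.26 log2 units, adjusted p = 0.049 in S+ and -1.08 ± 0.26 log2 units, adjusted p = 0.019 in S-. Prc1 had 196, 119 and 170.3 in S-, 161, 122 and 238 in S+ and 471 to 998 (median 588) in PreS. Ect2 had 126, 133 and 121 in S-, 173, 162 and 187 in S+ and 333 to 502 (median 461) in PreS. Prc1 and Ect2 were below PreS in both selected groups, while Kif23 had 276, 191 and 282 in S-, 218, 202 and 176 in S+ and 189 to 301 (median 234) in PreS and was not called in either.

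**Figure D5:**
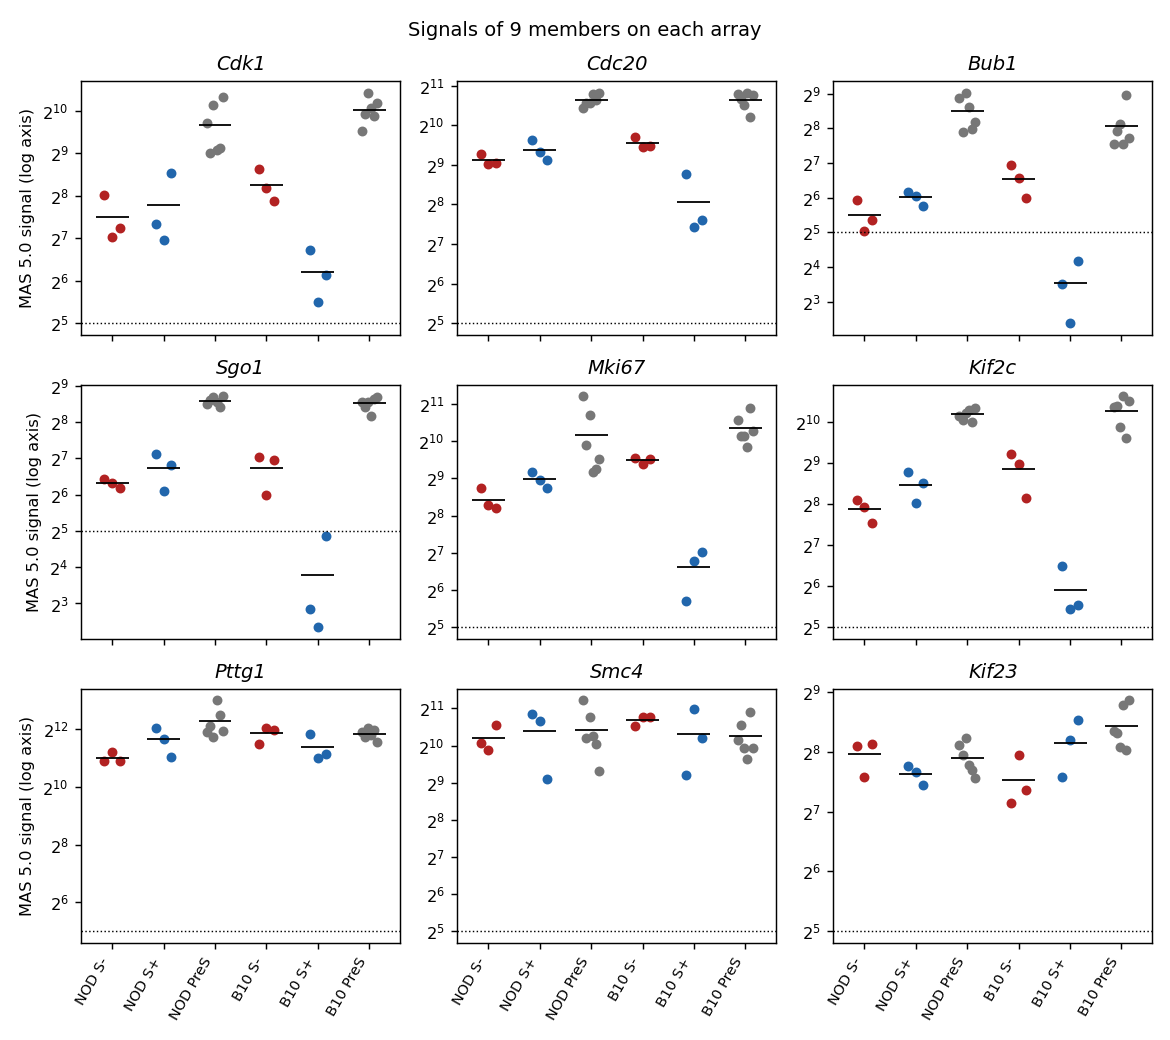
Points are the deposited signals of 9 members on each array, on a log axis, with the group mean as a line and a dotted line at a signal of 32. Cdk1, Cdc20, Bub1, Sgo1, Mki67 and Kif2c have their lowest values in the 3 B10 S+ arrays, with Bub1 and Sgo1 there under 32, whereas for Pttg1, Smc4 and Kif23 the S+ arrays of B10 overlap those of PreS.

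Set side by side, the strains differed in S+ cells. In S+, 23 of 49 members were higher in NOD than in B10 and none was lower (limma over 24 arrays), where 2.17% of all genes were higher, with a median log2 difference of 1.30. For 31 of the 49 every NOD S+ array lay above every B10 S+ array, where 8.01% of all genes did. Sgo1 was higher in NOD S+ cells by 3.30 ± 0.43 log2 units, adjusted p = 4.1e-05 and Ncapg by 3.21 ± 0.60 log2 units, adjusted p = 0.0024, the largest, and Prc1 by 1.27 ± 0.33 log2 units, adjusted p = 0.029 and Birc5 by 1.15 ± 0.31 log2 units, adjusted p = 0.036, the smallest of those called. The first probeset of Ncapg is near background in B10 S+, and its second was at 0.78 between the strains, which was not called (adjusted p = 0.53). The 23 came from all 6 role groups, 6 of 10 spindle genes, 4 of 9 of the checkpoint, 4 of 9 of chromosome structure, 3 of 6 of the midzone, 3 of 8 of the Cdk1 engine and 3 of 7 of the kinases. In S- cells no member was called by limma between the strains, with 14 at an unadjusted p under 0.05 (14.2% of all genes), and 44 of 49 were lower in NOD by sign, with a median of -0.46, where 2.33% of all genes were called in either direction. All NOD S- arrays lay below all B10 S- arrays for 20 of the 49, where 13.6% of all genes did. With array weights 19 members were called lower in NOD S-, where 9.2% of all genes were.

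Other measures of the same S+ arrays also differed between the strains in part. The summed signal of 7 markers of double positive thymocytes was 4390 to 5438 in NOD S+ arrays, against 1339 to 2128 in B10 S+, with Dntt, Rag1 and Rag2 of the 7 called higher in NOD. Dntt, which adds bases at receptor joints, carried this gap, at 2192 to 3782 in NOD S+ and 70.1 to 271 in B10 S+, and it was at 4340 to 10414 in NOD PreS and 226 to 713 in B10 PreS as well. The other 6 summed to 1586 to 2905 in NOD S+ and 1235 to 1857 in B10 S+, with overlap, and Cd8b1 among them had 39.7, 18.9 and 334 in NOD S+ against 95.5, 201 and 266 in B10 S+. The summed signal of 8 markers of myeloid and dendritic cells was 2330 to 3410.0 in NOD S+, against 601 to 1504 in B10 S+, and Cd74 and Itgax were called higher, of 6 tested. For 5 markers of double negative thymocytes the sums were 766 to 1020 in NOD S+ and 837 to 1835 in B10 S+, with Kit called higher in NOD. Without Dtx1 they were 251 to 374 in NOD S+ and 124 to 209 in B10 S+. B cell markers summed to 322 to 519 in NOD S+ and 231 to 328 in B10 S+, with none called. The log2 ratio of 3′ to 5′ signals of the control transcripts, a sign of RNA quality, was 1.59 to 5.82 in NOD S+ and 1.39 to 4.02 in B10 S+. The part of these in the result was not tested. Without the 3 S+ arrays of highest ratio named above, 15 members were called higher in NOD S+, at a median of 1.75. No day of hybridization held S+ arrays of both strains, and with day as a fixed block 5 members were called, where 0.511% of all genes were higher. With the second probeset in place of the first where a gene had one, 11 of 46 were called, at a median of 0.82.

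In PreS cells the strains were close in these genes, with a median of 0.02 and 4 of 49 called, all lower in NOD, where 2.54% of all genes were lower. Ncapd2 was the largest (-1.88 ± 0.30 log2 units, adjusted p = 2.7e-04), with 88.8 to 396 (median 289) in NOD PreS and 739 to 1212 (median 1039.5) in B10 PreS, and the arrays of the strains did not overlap. Nek2, a kinase that parts the centrosomes, had 71.1 to 137 (median 93.5) in NOD and 159 to 337 (median 203) in B10 (-1.10 ± 0.26 log2 units, adjusted p = 0.012). Tpx2, which activates Aurora A, had 199.8 to 331 (median 229.6) in NOD and 427 to 607 (median 508) in B10 (-0.98 ± 0.20 log2 units, adjusted p = 0.0041), and Cdca3 had 323 to 523 (median 338) in NOD and 559 to 708 (median 638) in B10 (-0.64 ± 0.18 log2 units, adjusted p = 0.049). With day as a fixed block only Nek2 stayed called, where 1.06% of all genes were lower, and Cdca3 lost its call in 22 of 36 alternatives. Like Ncapd2, these 3 had every NOD array below every B10 array, as 1.84% of all genes had. Melk alone had every NOD array above every B10 array, with 194 to 290 in NOD and 133 to 172 in B10, and was not called. In the same comparison a further probeset of Cdca3 and one of Tpx2 were at -0.04 (adjusted p = 0.94) and -1.08 (adjusted p = 0.033). Between PreS cells of TCR insHEL mice and of TCR mice no member was called in either strain (limma, with 3 at an unadjusted p under 0.05 in NOD and 0 in B10), and 0.0128% of all genes was called in NOD and 0% in B10.

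Tested as a difference of differences, the fall in S+ cells was smaller in NOD for 6 of 49 members, Sgo1 (3.18 ± 0.52 log2 units, adjusted p = 0.0073), Mki67 (2.80 ± 0.50 log2 units, adjusted p = 0.011), Kif2c (2.63), Cks2 (2.09), Tpx2 (1.96) and Ect2 (1.93), where 0.396% of all genes passed in this direction and no member passed in the other. Without B10 S+ replicate 2 or NOD S+ replicate 1 the count was 3, without B10 S+ replicate 1 it was 14, without NOD S+ replicate 3 it was 12, and with day as a fixed block it was 0. With array weights it was 18, where 1.81% of all genes passed. Of the 6, Tpx2 was also called lower in NOD than in B10 PreS cells (-0.98), and its S+ arrays overlapped between the strains. For S- against PreS no member passed (limma, 10 at an unadjusted p under 0.05, beside 12% of all genes), with a median of -0.43, and 0.0894% of all genes passed in either direction. For S- against S+, 9 members differed between strains, all with a lower difference of S- from S+ in NOD, where 0.192% of all genes passed. By mean signal each of the 9 was higher in S- than in S+ cells of B10 and lower in S- than in S+ cells of NOD. At an unadjusted p under 0.05 were 40 members and 8.06% of all genes. The 9 were Depdc1a (-4.07 ± 0.80 log2 units, adjusted p = 0.041), Sgo1 (-3.67 ± 0.60 log2 units, adjusted p = 0.0058), Bub1 (-3.64), Mki67 (-3.63), Kif2c (-3.60), Cks2 (-3.33), Nusap1 (-2.42), Ect2 (-2.21) and Cdc20 (-1.94 ± 0.39 log2 units, adjusted p = 0.042). The B10 S+ values of Depdc1a, Sgo1 and Bub1 are under 32, so that these sizes are not exact. The sign was the same for 48 of the 49, Kif23 being the other. A second probeset of Kif2c was not called in either test, at -0.0027 for S+ against PreS and 0.16 for S- against S+. That probeset had 27.5 to 93.9 over the 24 arrays, and its selected groups overlapped PreS in both strains. The fourth probeset had 4.6, 22 and 17.4 in B10 S+ and 16.5, 12.7 and 38.4 in NOD S+, with overlap. For S- against S+ the second probesets of Bub1 (-1.20, adjusted p = 0.47) and Cdc20 (-1.30, adjusted p = 0.58) were not called either, nor was that of Tpx2 for S+ against PreS (1.66, adjusted p = 0.20). Over the alternatives tried, Cdc20 lost its call in 23 of 37, Ect2 in 21 of 37, Depdc1a in 17 of 37 and Nusap1 in 11 of 36. Of all genes 15 passed, these 9 among them. The count was 5 without B10 S- replicate 1, B10 S+ replicate 2, NOD S+ replicate 1, B10 PreS TCR replicate 1, NOD PreS TCR insHEL replicate 2 or any 1 of the NOD S- arrays. It was 16 with the 3′ to 5′ ratio as a covariate and 34 with array weights, where 0.524% and 2.93% of all genes passed.

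Genes of neighbouring functions outside the 52 were also lower in many cases. Of 20 further spindle and cytokinesis genes tested, 18 were lower in B10 S+ than in PreS, where 9.86% of all genes were, and 7 were higher in B10 S- than in S+, where 1.56% were. Of 21 further kinetochore genes, 13 were lower in B10 S+ and 6 higher in S- than in S+. Of 36 DNA replication genes, 33 were lower in B10 S+, with a median of -2.13, while 5 had a called excess in S- over S+, with a median of 0.70 beside 1.51 for the mitosis genes. Among 18 regulators of G2 and mitosis 12 were lower in B10 S+ and 4 higher in S- than in S+. By contrast, 2 of 12 subunits of the anaphase-promoting complex and 2 of 10 cohesin genes were lower in B10 S+, with medians of -0.39 and -0.18, and 0 of the 12 and 1 of the 10 had a called excess in S- over S+. In S+ cells NOD was higher than B10 for 7 of the 20 spindle, 2 of the 21 kinetochore, 5 of the 36 replication and 0 of the 12 anaphase-promoting complex genes, beside 2.17% of all genes. In NOD 11 of the 20 spindle, 12 of the 21 kinetochore, 27 of the 36 replication and 2 of the 12 anaphase-promoting complex genes were lower in S- than in PreS, and 13, 12, 27 and 3 were lower in S+, beside 5.88% and 8.41% of all genes. These lists were not compared with each other by a test.

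Some markers of the sorted cells were as labelled. In both strains the selected cells had more Ccr7 and Il7r, receptors that mark maturing thymocytes, and less Cd8a than PreS cells. Sums of double positive markers were lower there, and of early single positive markers higher. In NOD, double negative markers summed to 832 to 1029 in S-, 766 to 1020 in S+ and 216 to 543 in PreS. Without Dtx1 they were 352 to 396 in S-, 251 to 374 in S+ and 136 to 317 in PreS, so that S+ overlapped PreS. In B10 the full sums were 684 to 860 in S-, 837 to 1835 in S+ and 804 to 1876 in PreS, with overlap. Myeloid markers summed to 1247 to 2376 in NOD S-, 2330 to 3410 in NOD S+ and 914 to 1888 in NOD PreS. Replicate arrays of a group correlated at 0.84 to 0.97 over kept probesets.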

How the data were processed

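The deposited signal intensity values came from 24 Affymetrix MOE430A arrays of amplified RNA, made by the authors with MAS 5.0, which summarizes each probeset on a linear scale, here with a trimmed mean of about 150 per array. They were turned to log2 (33 values of 0 set to 0.1) and each array was standardized to a common mean and SD. Probesets at 32 or more in all 3 arrays of at least 1 of 8 conditions were kept (12838 of 22626). Of the 22626, 20380 had 1 gene symbol in the annotation, 691 several and 1555 none, and 64 control probesets were left out. limma 3.58.1 (R 4.3.3) was fitted over all kept probesets, in each strain on its own (12 arrays, PreS of the 2 genotypes merged) and over 24 arrays for strain comparisons, two-sided, with Benjamini-Hochberg adjustment and a threshold of 0.05. Scripts were tested on simulated data. Errors in the text are SE of limma unless named SD. The 3 arrays of a selected group limit the precision. The p-values measure the spread between arrays, in which that of pools is joined with that of amplification and hybridization. Shares of all genes refer to 1 probeset a gene.

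The members and lists were chosen with earlier results of these data known. Values in every array are given for the 3 members of highest mean signal in each role, for Bub1, Cdk1, Cdc20 and Cdc25b, for the 2 largest and 2 smallest called differences in a comparison, and for members not called in B10 S+ cells. Further members are given by their differences. Same-numbered replicates deviated together little on average (mean r 0.036 over 84 pairs, 32 of them over 0.1, the highest 0.63). Pairs of different number had a mean r of -0.018 over 168 pairs, 49 of them over 0.1. No replicate block was used in the main fits. Arrays were hybridized on 9 days. The alternatives were other normalizations, floors and filters, the methods' t-test, blocks for day or replicate, array weights, the 3′ to 5′ ratio as a covariate, a second probeset, and leaving out arrays. Promoter windows were those of RefSeq. Marker lists for erythroid cells and thymic epithelium summed to at most 302 and 255 in any array.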

Additional observations from a re-analysis of the deposited data

Results flagged for a closer look

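Chance marks about 1 in 20 groups of 6 arrays as holding an outlying array. Among PreS arrays this held for 4 of 49 members in NOD and 1 of 49 in B10. In NOD all 4 were in TCR insHEL replicate 1, which was high for Cks2 (3599, others 1570.5 to 1838), Hmmr (1175, others 320.0 to 516) and Prc1 (998, others 471 to 656) and low for Ncapd2 (88.8, others 239.7 to 396). The log2 3′ to 5′ ratio of that array was 4.94, the highest of the PreS arrays (others 1.06 to 3.91). Its part in these values was not tested. In B10 it was TCR insHEL replicate 1 for Ect2 (222, others 391 to 482).

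The strains differed in the difference of S+ from PreS (limma, a test of the difference of differences) for Sgo1 (3.18), Mki67 (2.80), Kif2c (2.63), Cks2 (2.09), Tpx2 (1.96) and Ect2 (1.93), all positive, a smaller fall in NOD. For S- against S+ they differed for Depdc1a (-4.07), Sgo1 (-3.67), Bub1 (-3.64), Mki67 (-3.63), Kif2c (-3.60), Cks2 (-3.33), Nusap1 (-2.42), Ect2 (-2.21) and Cdc20 (-1.94), all negative.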

How the results depend on the processing

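Counts of members called are given. The methods' t-test and the use of no filter each gave 17 for B10 S- against S+ (32 as reported) and 5 for the strain difference in S- against S+ (9). With quantile normalization 1 was called between strains in S- (0). With day as a fixed block the counts were 4 for B10 S- against PreS (40), 13 for B10 S- against S+, 0 for NOD S+ and 0 for NOD S- against PreS (38 and 40), 1 and 5 for NOD against B10 in PreS and S+ (4 and 23), 0 for the strain difference in S+ against PreS (6) and 2 for NOD PreS TCR insHEL against PreS TCR (0). Day as a random block gave 15 for the strain difference in S- against S+. Array weights gave 7 for NOD S- against S+ (0), 19 for NOD against B10 in S-, 18, 5 and 34 for the strain differences in S+ against PreS, S- against PreS (0) and S- against S+, and 2 for NOD PreS TCR insHEL. The 3′ to 5′ ratio as a covariate gave 2 between strains in S- and 17, 1 and 16 for the same strain differences. A second probeset gave 11 and 1 between strains in S+ and S-, and 5 for the strain difference in S- against S+. Without the 3 S+ arrays of highest ratio (chosen after seeing the data) 17 were lower in NOD S+ than in PreS and 15 higher in NOD than in B10 S+. No count turned its direction. Except for the removal of arrays and the wider set of probesets tested without a filter, the cause was not tested.

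Leaving out 1 array gave 43 to 46 for B10 S+ against PreS, 31 to 41 for B10 S- against PreS, 16 to 31 for B10 S- against S+, 29 to 39 and 31 to 42 for NOD S+ and S- against PreS, 0 for NOD S- against S+, 3 to 5, 17 to 27 and 0 to 2 for NOD against B10 in PreS, S+ and S-, and 3 to 14, 0 and 5 to 13 for the strain differences in S+ against PreS, S- against PreS and S- against S+.

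Replicate numbers were not used as a pairing in the main fits. With the replicate number as a block the counts were 45, 39 and 27 in B10 for S+ against PreS, S- against PreS and S- against S+, 39, 41 and 0 in NOD, 4, 25 and 0 between strains in PreS, S+ and S-, and 7, 0 and 11 for the strain differences.

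Of 2530 values of 87 single differences under these alternatives, 2223 kept direction and side of the threshold, 274 were no longer called, 23 became called and 10 changed sign. Smc4 in B10 S+ against PreS (-0.04) was 0.17 with day as a fixed block, 0.082 with array weights, 0.031 with the ratio, 0.42 without the 3 arrays, and -0.46 to 0.42 without single arrays. Smc2 in B10 S- against PreS was 0.46 with day as a fixed block. Kif2c by its second probeset was -0.0027 and 0.16 for the strain differences in S+ against PreS and S- against S+. Values under 32, most of them in B10 S+, are near background and limit the size of differences there.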
